A study of Macaca mulatta with 304 samples.

Results

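Of the 28 rhesus macaques in the series, 22 gave their last blood sample before Day 270, the end of follow-up, and their final pair of draws is described here. For each of these animals the draw on its largest day was compared with the draw on its second-largest day, so that every animal served as its own reference. This gave 44 of the 280 samples drawn after irradiation (24 more were controls), 14 from 7 animals given 9.8 Gy and 30 from 15 animals given 10.7 Gy. The choice used the recorded days only and no expression value.

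The animals were macaques of Chinese origin whose thorax was exposed to a single photon dose, and whole blood was drawn into RNA-stabilizing tubes for ribosomal RNA-depleted, stranded RNA sequencing. The labels give dose, day and sex (12 males and 10 females among the 22) and no age for single animals. Draws followed a fixed schedule that ran to Day 270, and the study's methods state that animals which met euthanasia criteria between scheduled days had a final sample drawn then. Analgesics were given to the cohort in the first weeks, and animals breathing too fast received tapered courses of dexamethasone, a synthetic glucocorticoid.

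The last draw fell between Day 30 and Day 172, and the interval to the preceding draw ran from 4 to 30 days with a median of 18.5. At 9.8 Gy the last day ranged from 102 to 172 and at 10.7 Gy from 30 to 129. In 8 animals, 4 at each dose, the last day was not a scheduled one; in the other 14, of which 3 had received 9.8 Gy, it was. In 4 animals, B2005, B2007, B2008 and B2503, the last draw came before the first death recorded in the study, so it was not a sample taken at death. The labels do not state why a last draw was the last, nor which animals were on dexamethasone at a draw.

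Whole-blood RNA is a mixture from neutrophils, lymphocytes, monocytes, platelets and young red cells, so its profile moves with the make-up of the blood as well as with the activity of each cell. Fewer cells of a type and less RNA per cell cannot be told apart in such samples. Glucocorticoids act through a receptor that binds DNA at palindromic elements and switches on FKBP5, a co-chaperone that limits the receptor itself, together with TSC22D3, PER1, ZBTB16, CD163 and the decoy interleukin-1 receptor IL1R2. They are also known to release neutrophils into the blood and to move lymphocytes and eosinophils out of it.

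The sequences below show the closest matches to the glucocorticoid response element inside 4 glucocorticoid-induced genes. The changes of these genes between draws moved together from animal to animal, as did those of other genes not shown here. The motif searched was AGAACA, any 3 bases and TGTTCT, with at most 1 mismatch in the fixed letters, from gene start to gene end in Mmul_10. It is its own reverse complement, so 1 scan covers both strands. FKBP5, IL1R2, ZBTB16, TSC22D3, PER1 and CD163 were the only genes picked for this search, after their values were known. Capitals mark the 15 bases of the match, and each sequence is written along the strand of its gene.

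FKBP5, exact match, chr4:133884137-133884181, plus strand: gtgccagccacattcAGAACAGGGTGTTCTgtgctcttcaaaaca
FKBP5, 1 mismatch, chr4:133840605-133840649, plus strand: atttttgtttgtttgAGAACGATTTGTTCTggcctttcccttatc
FKBP5, 1 mismatch, chr4:133872386-133872430, plus strand: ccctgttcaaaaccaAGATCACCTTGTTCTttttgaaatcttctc
IL1R2, 1 mismatch, chr13:5812008-5812052, plus strand: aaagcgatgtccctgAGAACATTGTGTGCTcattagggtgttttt
ZBTB16, 1 mismatch, chr14:107367886-107367930, plus strand: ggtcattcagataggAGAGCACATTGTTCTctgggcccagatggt
TSC22D3, 1 mismatch, chrX:104485852-104485896, minus strand: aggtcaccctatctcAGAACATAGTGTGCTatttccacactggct

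All 6 sites shown lie in introns. TSC22D3 held 2 matches in all. PER1, whose change also moved with that of FKBP5, held 1 in an exon, which is not shown, and CD163 held 0. A window as long as FKBP5 held such a match in 48% of cases on its chromosome, against 9.45% for IL1R2, 26.9% for TSC22D3 and 61.6% for ZBTB16, so a match in the longer genes was common. For PER1 the share was 6.53% and for CD163 17.1%. In the 250 bases before the gene start, a looser match (at most 3 mismatches) was present in 1 of 25 tested glucocorticoid-induced genes and in 7.33% of 13651 promoters. A match is a description of letters and was not tested as a binding site.

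The ranges of sequencing depth of the draws overlapped. Preceding draws held 5380587 to 11130843 counts (median 7133644) and last draws 4869123 to 10330712 (median 7025525), and the mean log2 difference was -0.04 (exact two-sided sign-flip permutation test, p = 0.437, higher in 10 of 22 animals). The last draw of animal B2007, on Day 40, stood apart from the other 43 libraries. The heme synthesis enzyme ALAS2 took 10.9% of its counts, against at most 2.36% elsewhere, and its beta-globin HBB reached 9148 CPM (counts scaled to a common library size by the upper quartile) against at most 2942. The values it moves most are also given without it.

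Between the preceding and the last draw, no gene passed the test across the 22 animals. In edgeR's quasi-likelihood test, with a term for each animal, 0 of 13751 genes (0%) met both criteria (adjusted p of 0.05 or less, and a change of at least 1.5-fold), and the smallest adjusted p was 0.0553. At an unadjusted p of 0.05, 2552 genes (18.6%) were counted, 999 with higher values at the last draw (7.26%) and 1553 with lower ones (11.3%); with TMM scaling the split was 1388 to 1103. DESeq2 called 209 genes, 159 higher and 50 lower, and limma on the deposited log2 values called 0. Without animal B1506 edgeR called 4 genes and without B2001 it called 5.

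The direction was not shared by all animals for any gene. In 253 genes at least 80% of the 22 animals had the same sign of change, 84 genes upward and 169 downward, and no gene had it in all 22. The spread between animals was wide: the SD of the per-animal log2 change was 0.72 for the median gene, 1.93 for FKBP5, 2.74 for IL1R2 and 2.61 for ZBTB16. The first principal component of the 22 per-animal changes held 32.8% of their variance.

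The interval before the final one held more called genes. From the third-last to the preceding draw of the same 22 animals, 533 genes were called (3.88%), of which 415 rose (3.02%) and the others fell (0.858%). The decoy receptor IL1R2 had a median of 19.5 CPM at the third-last draw (6.63 to 2077), 59.7 at the preceding draw (7.62 to 716) and 127 at the last (26.6 to 2598). It rose by 1.47 ± 0.32 (log2, SE) over the earlier interval (edgeR adjusted p = 0.00293), and its value for the final interval was 1.42 ± 0.58 (adjusted p = 0.214). The neutrophil gelatinase MMP9 rose by 1.27 ± 0.24 over the earlier interval and was at 0.91 ± 0.27 over the final one. FKBP5 was at 0.23 ± 0.20 over the earlier interval and did not pass the test. Of 19 mature neutrophil genes 16 rose over that interval, of 19 granule genes 13, of 25 glucocorticoid-induced genes 7, and of 23 B cell genes 6 fell. These 2 comparisons share the preceding draws, and their difference was not tested. The third-last and preceding draws had library numbers of different ranges in several animals, among them B1002, B1506 and B2008. For the final pair this held in 2 animals, and in the other 20 both draws had the library number 0. The number 0 was treated as a range of its own, and sharing it does not show that libraries came from a common batch. The part of the library range in the calls of the earlier interval was not tested. Without the animal block the earlier interval gave 0 calls.

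Glucocorticoid-induced genes differed widely between animals. FKBP5 had 86.8 to 1311 CPM at the preceding draw (median 185) and 83.4 to 2648 at the last (median 225.9), with higher values in 13 of 22 animals. The 24 control samples, drawn on Day -2, reached at most 437. Last draws lay above that level in 8 animals and preceding draws in 4, and no animal had both above it.

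The 8 animals were of both doses. At 9.8 Gy, FKBP5 went from 115.3 to 1857 CPM in B1001, from 180 to 2140 in B1005 and from 190 to 2027 in B1006. At 10.7 Gy it went from 317 to 2057 in B2004, from 284 to 2648 in B2507, from 134.5 to 576 in B2007, from 146 to 488 in B2504 and from 171 to 587 in B2505. The opposite course, a high preceding draw and a last draw inside the control range, was seen in 4 animals. FKBP5 went from 524 to 165 in B1506, from 717 to 182 in B2001, from 1311 to 261 in B2003 and from 594 to 180 in B2501. In the other 10 animals both draws lay at or below the highest control.

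The mean of such opposite courses was small against its error. For FKBP5 the change was 0.59 ± 0.40 (log2, SE, n = 22; edgeR adjusted p = 0.396). Before the final pair, 1 of 146 draws from these animals exceeded the highest control for FKBP5, that of B1506 on Day 120 (1596 CPM). Which of these draws fell within a course of dexamethasone is not in the labels, and its part in these values was not tested.

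**Figure D1:**
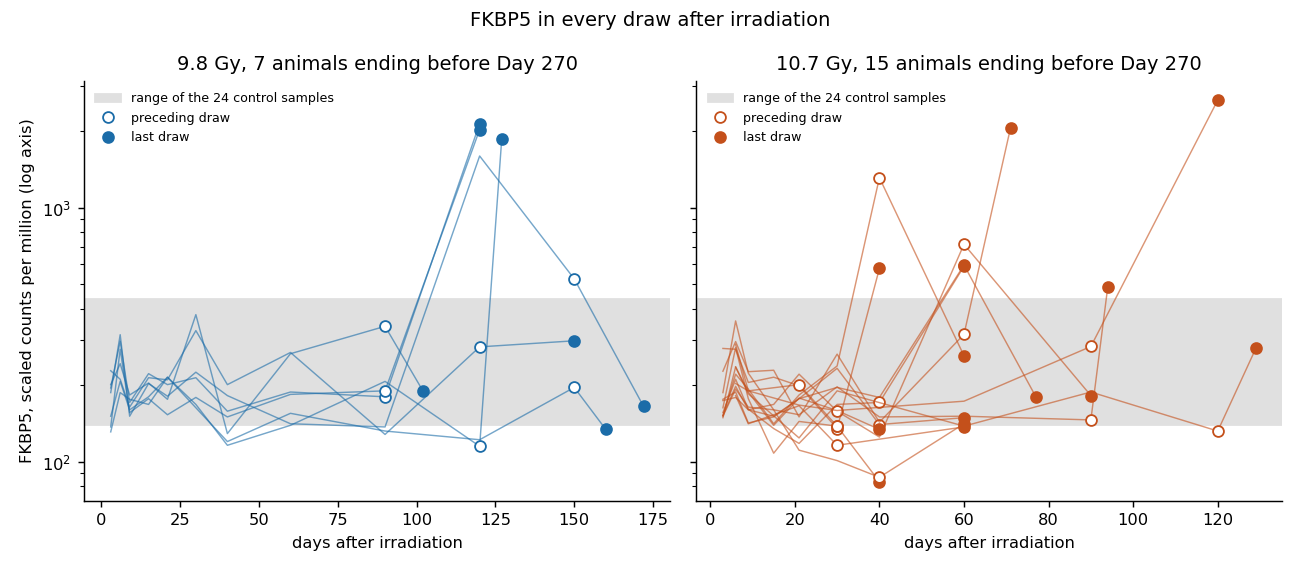
FKBP5 in scaled CPM (log axis) against days after irradiation for the 7 animals at 9.8 Gy (left) and the 15 at 10.7 Gy (right), 1 line per animal, with open circles for preceding and filled circles for last draws. The grey band is the range of the 24 control samples, and 8 filled and 4 open circles lie above it.

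The change of 5 other glucocorticoid-induced genes was set against that of FKBP5, and 4 of them followed it closely. IL1R2, which binds interleukin-1 without signaling, had higher values at the last draw in 17 of 22 animals. It went from 7.62 to 1023 in B1005 and from 14.4 to 1280 in B1006, and from 716 to 88.9 in B2001. ZBTB16, a zinc-finger repressor, ranged from 11.6 to 241 CPM and then from 8.36 to 1736, and the clock gene PER1 from 24.2 to 478 and then from 24.6 to 898. The hemoglobin scavenger receptor CD163 of monocytes had medians of 95.8 and 177 CPM. For these 3 genes the ranges of the draws overlapped, and the changes were 0.88 ± 0.56, 0.68 ± 0.43 and 0.82 ± 0.34.

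Over the 22 animals, the FKBP5 change was related to that of ZBTB16 with r = 0.97 and rho = 0.97, to IL1R2 with r = 0.94 and rho = 0.95, to PER1 with r = 0.89 and rho = 0.92, and to TSC22D3 with r = 0.87 and rho = 0.88. Each of these had a permutation p of 1e-05, the smallest that 100000 permutations can give, and an adjusted p of 3.86e-05 for r over the 27 relations computed. Without the animals farthest from the median FKBP5 change, B1001 and B1005, r was 0.98, 0.96, 0.91 and 0.85 in the same order. Within the 15 animals at 10.7 Gy r was 0.97, 0.97, 0.92 and 0.85, and within the 7 at 9.8 Gy it was 0.97, 0.90, 0.89 and 0.88. CD163 was less closely related, with r = 0.57 and rho = 0.62 (permutation p = 0.00605 and 0.00262, adjusted 0.00961 and 0.00442). Its r was 0.55 without B1001 and B1005, 0.76 at 9.8 Gy and 0.34 at 10.7 Gy. Genes outside the glucocorticoid-induced list were related to FKBP5 about as closely. The interleukin-33 receptor IL1RL1 had r = 0.92 and rho = 0.93, and the myeloid lectin CLEC4D r = 0.88 and rho = 0.90. Both changes of a pair come from the same libraries, and the genes were chosen with earlier results of these data known.

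Of the 25 tested genes of the glucocorticoid-induced list, 6 had higher and 2 lower values at an unadjusted p of 0.05, beside 7.26% and 11.3% of all genes. The median log2 change was 0.44, against -0.08 over all genes. The 2 members with the smallest p were PDK4, a kinase that spares glucose, and the interleukin-7 receptor IL7R, which T cells also carry. PDK4 had medians of 18.7 and 44.3 CPM and was higher in 16 of 22 animals (1.00 ± 0.32, adjusted p = 0.192). For IL7R the median was 363 CPM at the preceding and 301 at the last draw, with lower values in 18 of 22 animals (-0.55 ± 0.14, adjusted p = 0.164).

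**Figure D2:**
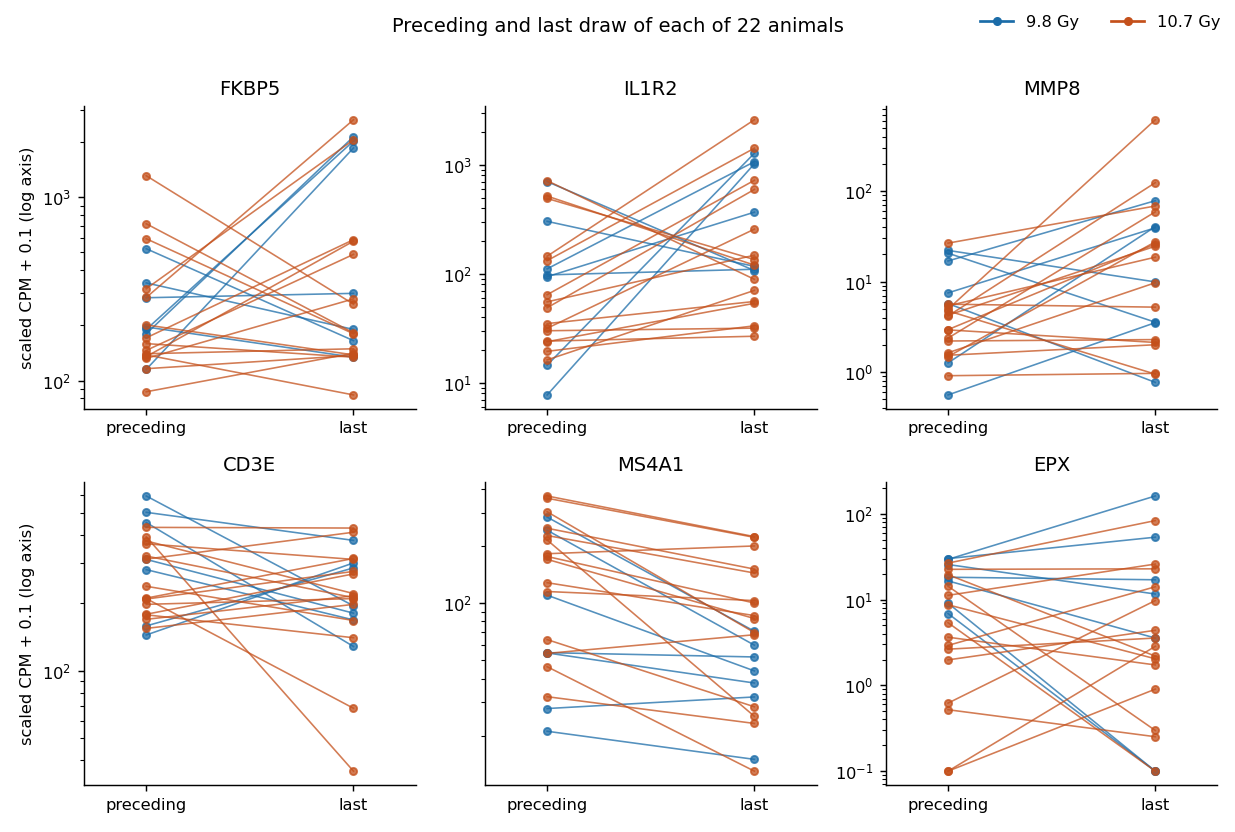
Scaled CPM plus 0.1 (log axis) at the preceding and last draw for FKBP5, IL1R2, MMP8, CD3E, MS4A1 and EPX, 1 line per animal, coloured by dose. Lines for FKBP5 run both up and down, whereas 19 of the 22 MS4A1 lines run down.

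Genes of neutrophils had higher values in most animals. The matrix-degrading collagenase MMP8 had 0.457 to 26.5 CPM at the preceding draw (median 4.1) and 0.667 to 616 at the last (median 14.2), with higher values in 16 of 22 animals. The largest last-draw value was that of B2507, which had 4.85 CPM at the preceding draw. The change was 1.73 ± 0.54 (adjusted p = 0.191). CD177, a neutrophil surface protein, had medians of 136.5 and 274 CPM and was higher in 18 of 22 animals (1.11 ± 0.32, adjusted p = 0.18). LCN2, which binds bacterial iron carriers, had medians of 8.74 and 12.5 CPM, also higher in 18 animals (1.01 ± 0.41). ARG1 and OLFM4, other granule genes, were lower in 9 and 10 animals.

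For this list and those that follow, the counts at an unadjusted p of 0.05 are to be read against 7.26% of all genes higher and 11.3% lower. Of 19 tested granule protein genes, 10 had higher and 0 lower values (median log2 change 0.46). Of 19 genes of mature neutrophils and calgranulins, 12 were higher and 0 lower (median 0.52). The calgranulin S100A8, a calcium-binding alarm protein, had 5.18 to 470 CPM and then 36 to 888, and S100A12 had 0.313 to 29.7 and then 0.809 to 43.2, each higher in 17 of 22 animals. Both draws overlapped over most of these ranges. The last draw exceeded the highest control for S100A8 in 12 animals and the preceding draw in 2. DESeq2 called 6 genes higher in each of the 2 neutrophil lists, against 1.16% of all genes.

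Receptors of myeloid cells gave like values. Of 20 tested C-type lectin and Fc receptor genes, 8 were higher and 0 lower at an unadjusted p of 0.05 (median 0.47). The urokinase receptor PLAUR had medians of 23.5 and 39.9 CPM and was higher in 18 of 22 animals (1.17 ± 0.32), and CLEC4D, a lectin that senses fungi and mycobacteria, had medians of 3.39 and 5.48 CPM (1.57 ± 0.60). IL1RL1, the interleukin-33 receptor, had medians of 20.8 and 28.9 CPM with a highest value of 919 at the last draw, in B1001. The acute-phase gene ORM1, which is also transcribed in myeloid cells, was higher in 19 of 22 animals, with medians of 12.9 and 19.3 CPM (1.14 ± 0.28, adjusted p = 0.164). None of these passed the adjusted test.

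Other innate lists had smaller shifts. At an unadjusted p of 0.05, 8 of 21 complement genes were higher and 1 lower (median 0.15), with the integrin ITGAM at 0.70 ± 0.21 and the anaphylatoxin receptor C5AR1 at 0.65 ± 0.20. Of 27 Toll-like receptor and inflammasome genes 6 were higher and 1 lower (median 0.23). The lower one was the RNA sensor TLR7, with medians of 3.22 and 1.87 CPM and lower values in 18 of 22 animals. Of 29 cytokine and chemokine genes 7 were higher and 0 lower (median 0.23), among them the pattern-recognition protein PTX3 (0.67 ± 0.20). Of 21 monocyte genes 4 were higher and 1 lower (median 0.10). The lower one, MS4A7, a marker of non-classical monocytes, went from a median of 16.4 to 5.95 CPM and was lower in 17 animals (-1.13 ± 0.25). CSTA, of the same list, had medians of 5.52 and 8.73 CPM and was higher in 16 animals (0.71 ± 0.23). It exceeded the highest control in 20 last and 17 preceding draws, and its change was related to that of FKBP5 with r = 0.04.

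B cell genes had lower values in most animals. The B cell antigen MS4A1 (CD20) had 21 to 367 CPM at the preceding draw (median 149) and 12.9 to 224 at the last (median 68.9), and was lower in 19 of 22 animals. The change was -0.88 ± 0.17, and its adjusted p of 0.0553 missed the threshold. The last draw lay below the lowest control in 13 animals and the preceding draw in 8. CD79B, a chain of the B cell receptor, had medians of 83.2 and 34.1 CPM and was lower in 17 animals (-0.80 ± 0.21). The receptor-like FCRL5 was lower in 19 (-0.59 ± 0.12).

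All 23 tested B cell genes had a negative log2 change, 20 of them at an unadjusted p of 0.05, and the median was -0.59. At that threshold 11.3% of all genes were lower. DESeq2 called 6 of the 23 lower, against 0.364% of all genes. Of 18 plasma cell genes 4 were lower and 0 higher (median -0.19), among them the ectoenzyme CD38 (-0.57 ± 0.14).

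T cell genes differed more between animals. CD3E, a chain of the T cell receptor complex, had 144 to 597 CPM at the preceding draw (median 259) and 35.7 to 430 at the last (median 213.3), with higher values in 9 and lower values in 13 animals (-0.34 ± 0.21, adjusted p = 0.352). The lowest value was that of the B2007 library, the next lowest being 68, and without this animal the change was -0.22 ± 0.17. CCR7, which guides naive cells to lymph nodes, was lower in 16 animals (-0.67 ± 0.22). All 20 genes of the T cell receptor list had a negative change, 9 at an unadjusted p of 0.05 (median -0.42, or 5 and -0.31 without B2007), with CD4 at -0.58 ± 0.20 and the co-stimulatory receptor CD28 at -0.59 ± 0.21. Of 17 naive lymphocyte genes 7 were lower and 1 higher (median -0.30), and of 22 cytotoxic genes 1 was lower and 0 higher (median -0.23), no more than the 11.3% of all genes.

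The lymphocyte changes ran against that of FKBP5. For CD3E r was -0.72 and rho -0.82 over the 22 animals (permutation p = 6e-05 and 1e-05, adjusted 0.000202 and 3.37e-05), and r was -0.82 without B2007. For CCR7 r was -0.80 and rho -0.81, for MS4A1 -0.62 and -0.66, and for MMP8, of the opposite sign, 0.76 and 0.77. Among other neutrophil genes r was 0.74 for S100A12, 0.69 for CD177, 0.60 for LCN2, 0.55 for OLFM4, 0.52 for S100A8 (0.36 at 10.7 Gy) and -0.04 for ARG1. The adjusted permutation p of r for CCR7, MS4A1 and MMP8 was 3.86e-05, 0.00385 and 0.00021. Without the 2 farthest animals r was -0.73 for CD3E, -0.76 for CCR7, -0.68 for MS4A1 and 0.84 for MMP8. Within the 10.7 Gy animals it was -0.67, -0.70, -0.60 and 0.83, and within the 9.8 Gy animals -0.83, -0.90, -0.70 and 0.84.

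**Figure D3:**
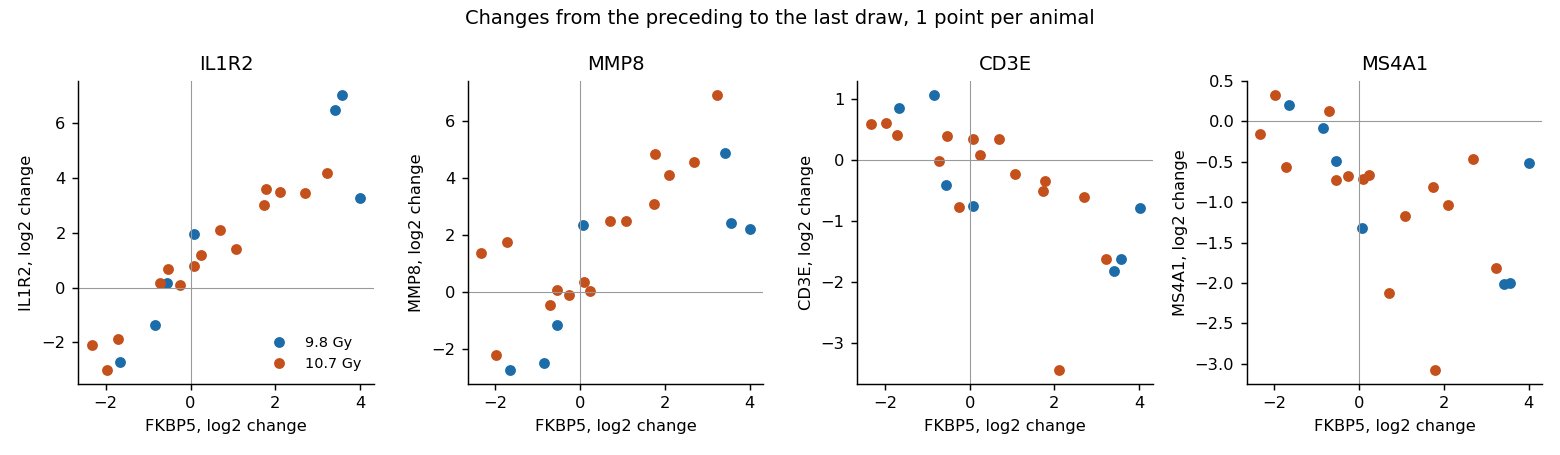
Log2 change from the preceding to the last draw of IL1R2, MMP8, CD3E and MS4A1 against that of FKBP5, 1 point per animal, coloured by dose. Points rise with FKBP5 for IL1R2 (r = 0.94) and MMP8 (r = 0.76) and decline for CD3E (r = -0.72) and MS4A1 (r = -0.62).

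Eosinophil and basophil genes were sparse. The eosinophil peroxidase EPX had 0 to 29.9 CPM at the preceding draw (median 8.78) and 0 to 161 at the last (median 3.46), with higher values in 11 and lower values in 11 animals. It was at 6.77, 8.97 and 5.27 CPM in B1006, B1501 and B2007 and was not counted in their last draws, whereas B1504 went from 29.3 to 161. Its change was related to that of FKBP5 with r = -0.67 and rho = -0.72 (permutation p = 0.00065 and 0.00031, adjusted 0.00146 and 0.000761), and r was -0.72 without the 2 farthest animals with -0.78 within the 10.7 Gy and -0.48 within the 9.8 Gy animals. Of 13 eosinophil genes 2 were higher and 0 lower at an unadjusted p of 0.05 (median 0.02), with the granulocyte factor CEBPE, which neutrophil precursors also use, at 0.75 ± 0.28. Of 14 basophil and mast cell genes 1 was higher and 3 lower (median -0.20). The mast cell carboxypeptidase CPA3 had medians of 1.28 and 0.096 CPM.

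Red cell genes had single values far from the rest. HBB had 3.03 to 2942 CPM at the preceding draw (median 18.4) and 2.27 to 9148 at the last (median 9.71). It went from 2942 to 45 in B2008, from 1375 to 2.27 in B2508, from 465.8 to 7.58 in B2505 and from 353 to 6.1 in B2002, all at 10.7 Gy, and from 52.2 to 9148 in B2007. The other animals lay between 3.03 and 59.3 in both draws. Globin genes have close copies, so the split of their reads is uncertain. The change of HBB was -1.11 ± 0.60, and -1.34 ± 0.53 without B2007. Of 31 erythroid and heme genes 0 passed an unadjusted p of 0.05 (median -0.21), and without B2007 8 did, all lower (median -0.33). All 22 platelet genes had a change of at least 0.00 (median 0.35), 2 of them at that threshold, with the clusterin gene CLU at 0.60 ± 0.24 and the integrin ITGB3 at 0.59 ± 0.26.

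**Figure D4:**
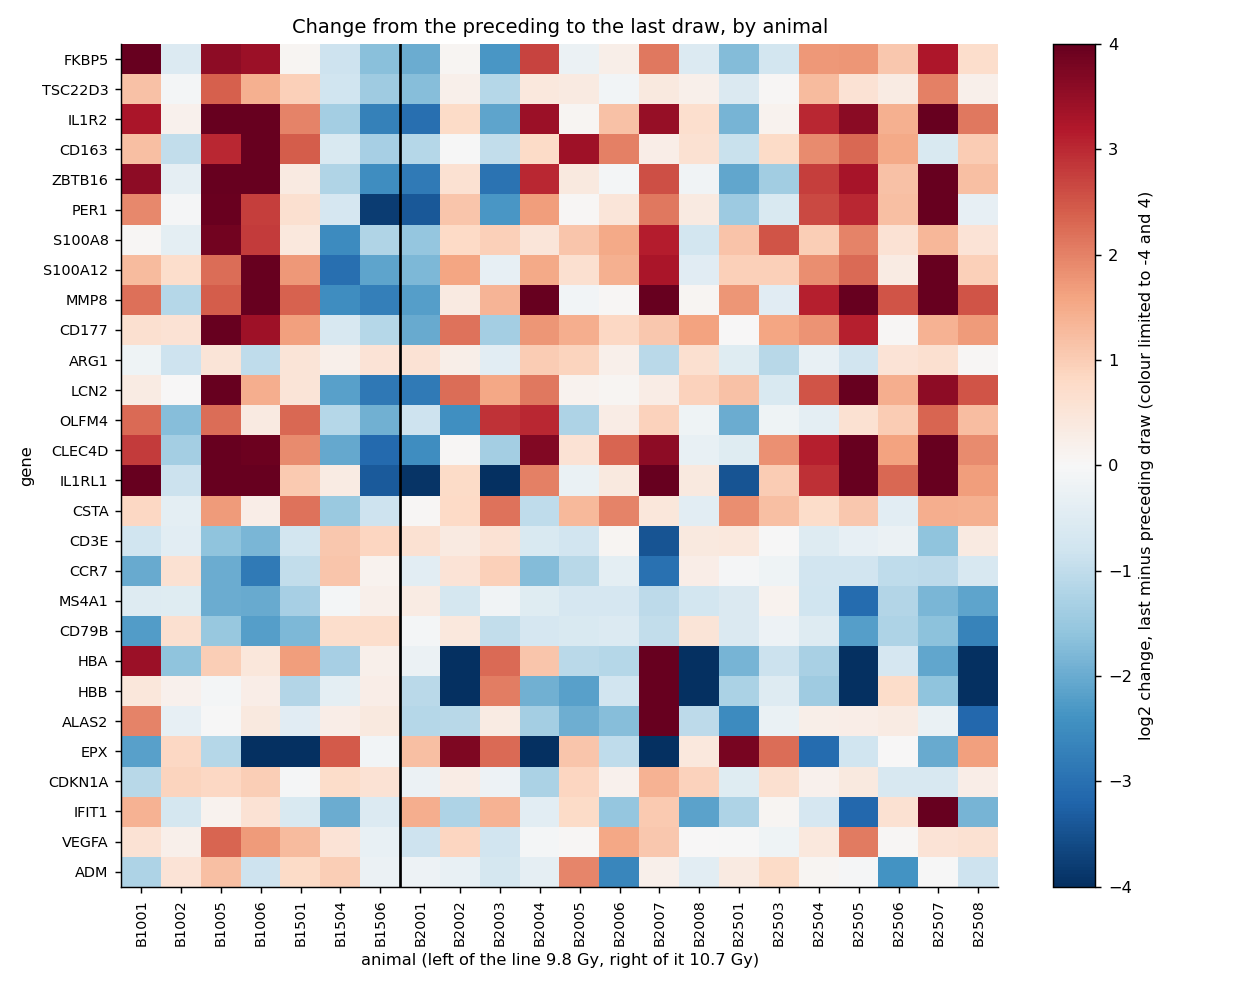
Log2 change from the preceding to the last draw for 28 genes (rows) in 22 animals (columns), 9.8 Gy left of the line and 10.7 Gy right of it; red is higher at the last draw and blue lower, with colours limited to -4 and 4. The rows of FKBP5, TSC22D3, IL1R2, ZBTB16, PER1, CLEC4D and IL1RL1 are red and blue in largely the same columns, that of CD163 less so (r = 0.57 with FKBP5), and the B2007 column is red for HBA, HBB and ALAS2.

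Lists for stress and growth differed in how many members passed an unadjusted p of 0.05. Of 33 interferon response genes 0 were counted (median -0.14). Single animals moved far in both directions. The list median was 4.30 in B2507 and 2.33 in B2005, but -2.53 in B2505 and -2.47 in B2007, and it was positive in 7 of 22 animals. IFIT1, which binds viral RNA, went from 63.8 to 1178 CPM in B2507. The interferon element, GAAA, any 2 bases and GAAA, searched on both strands in the 250 bases before the gene start, was in 33.3% of the promoters of this list and in 2.85% of all. Of 27 p53 targets 2 were higher and 8 lower (median -0.12), with the p53-induced nuclease AEN at -0.47 ± 0.16, SESN1, a stress sensor, at -0.31 ± 0.11 and the cell cycle inhibitor CDKN1A at 0.21 ± 0.15. Of 39 replication and mitosis genes 6 were lower (median -0.24), of 53 ribosomal protein genes 7 (median -0.26, all 53 with a negative change) and of 43 oxidative phosphorylation genes 0 (median -0.12). Without B2007 these 3 counts were 14, 29 and 3, and 4 p53 targets were higher and 6 lower.

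Of 32 hypoxia and glycolysis genes 13 were higher and 0 lower at an unadjusted p of 0.05 (median 0.17), against 7.26% and 11.3% of all genes. The glucose transporter SLC2A3 had medians of 238.8 and 335 CPM (0.44 ± 0.12) and the glycolytic enzyme ALDOA 530 and 741 (0.41 ± 0.14). The vessel growth factor VEGFA was at 0.52 ± 0.18 and ADM, a hypoxia-induced peptide, at -0.14 ± 0.29. Of 25 heat shock and unfolded protein genes 5 were lower and 0 higher (median -0.11). The chaperone HSPH1 was lower in 19 of 22 animals (-0.77 ± 0.20) and HSP90AA1 in 18 (-0.58 ± 0.16). Of 25 immediate early genes 3 were higher and 1 lower (median 0.09).

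Markers of cells outside the blood were near 0 or are also transcribed in blood. The lung surfactant gene SFTPA1, the epithelial EPCAM, the keratins KRT1 and KRT16 and the liver gene CRP had no count in the 44 libraries. Summed lung epithelium markers, to which HOPX contributes most, had 164 to 480 CPM at the preceding and 192 to 624 at the last draw. Keratinocyte markers had 16.3 to 47.1 and 13.6 to 57.2, fibroblast and endothelium markers 330.8 to 1004.3 and 406 to 1689, and liver markers, of which SERPINA1 makes up most, 125.4 to 1065 and 262 to 2056. All 12 genes of the leukocyte identity check were tested, and their summed level was between 8571 and 324989 CPM in the 44 libraries, the highest in that of B2007 and at most 38151 in the others.

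At 9.8 Gy, 0 of 13751 genes were called by edgeR (0%) and 553 (4.02%) had an unadjusted p of 0.05 or less; DESeq2 called 5 and limma 0. FKBP5 was at 1.06 ± 0.78 (log2, SE, n = 7). Platelet genes had a median of 0.78, with 16 of 22 higher at the unadjusted threshold (1.99% of all genes), and interferon response genes a median of -0.62, with 14 of 33 lower (2.03%). At 10.7 Gy the medians of these lists were 0.16 and 0.15, with 0 members of either past the threshold. Erythroid genes had a median of 0.30 at 9.8 Gy, with 4 of 31 higher, and of -0.45 at 10.7 Gy, with 2 lower. At 10.7 Gy, edgeR called 0 genes (0%) with 1874 (13.6%) at the unadjusted threshold, 643 of them higher (4.68%); DESeq2 called 79 and limma 1. B cell genes had a median of -0.64, with 20 of 23 lower (8.95% of all genes), and at 9.8 Gy of -0.45, with 3 lower. PLAUR was at 1.54 ± 0.28 (adjusted p = 0.114), ORM1 at 1.52 ± 0.29 and MMP8 at 2.14 ± 0.57 (n = 15). Without B2001 edgeR called 12 genes at this dose and without B2007 it called 1.

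The doses were not shown to differ. The interaction term called 0 of 13751 genes (0%) in edgeR, DESeq2 and limma, with 1.68% of genes at an unadjusted p of 0.05, 96 of them with a more positive change at 10.7 Gy (0.698%) and the others with a more negative one (0.982%). The 3 genes with the smallest p were SHMT1, a folate enzyme, at -0.86 ± 0.24 (10.7 Gy minus 9.8 Gy), NSG2 at -1.84 ± 0.52 and LYZL6 at -2.27 ± 0.65, each with an adjusted p of 1. The median interaction was -0.90 for erythroid genes (2 of 31 at the unadjusted threshold), -0.72 for platelet genes (1 of 22) and 0.83 for interferon genes (0 of 33). SHMT1 was higher at the last draw in 7 of 7 animals at 9.8 Gy and in 4 of 15 at 10.7 Gy. A miss of this threshold does not show that the doses acted alike, since for this term 127 of 200 simulated 3-fold changes were recovered. Last days and doses also differ together.

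Last draws on unscheduled and on scheduled days were also set apart. In the 14 animals with a scheduled last day 0 genes were called (0%) and 3130 (22.8%) had an unadjusted p of 0.05 or less, 1170 higher (8.51%) and 1960 lower (14.3%); DESeq2 called 771 and limma 0. In the 8 with an unscheduled one 0 were called (0%) with 248 (1.8%) at the unadjusted threshold (0.807% of all genes higher and 0.996% lower), and DESeq2 and limma called 0. CD177 was at 1.57 ± 0.41 in the scheduled and 0.38 ± 0.30 in the unscheduled animals, and MS4A1 at -1.12 ± 0.24 and -0.49 ± 0.16. The interaction of CD177 and that of MS4A1 had an adjusted p of 0.907 each. The median change of cytotoxic lymphocyte genes had opposite signs by kind of last draw. In scheduled animals it was -0.60, with 19 of 22 genes lower at the unadjusted threshold and 1 higher. In unscheduled animals it was 0.39, with 4 of 22 genes higher, 0 lower and 21 of 22 positive. Single animals differed, and genes of a list are not replicates. The list median ran from -1.68 (B2007) to 0.08 (B2003) in scheduled animals. In unscheduled ones it ran from -0.62 (B2004) to 1.56 (B1506), with 1.14 in B2501 and -0.11 in B2504. T cell receptor genes had medians of -0.64 and -0.03, and granule genes 0.74 and 0.12.

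The interaction called 0 genes in edgeR (0%, with 608 or 4.42% at the unadjusted threshold, 2.95% with a more positive change in unscheduled animals), 0 in limma and 4 in DESeq2. Of 22 cytotoxic genes 16 had a more positive change in unscheduled animals at the unadjusted threshold (median interaction 1.01, against 0.08 over all genes), among them KLRB1, an inhibitory receptor of natural killer and T cells (1.24 ± 0.34, adjusted p = 0.793). The smallest adjusted p in edgeR was 0.248, for the collagen gene COL11A1. It was at 1.44 ± 0.34 in unscheduled and -0.39 ± 0.16 in scheduled animals, higher at the last draw in 7 of 8 and 3 of 14. SPRY2, a brake on growth factor signaling, was higher in 7 of 8 and 0 of 14, and the natural killer receptor KLRC1 in 6 of 8 and 2 of 14. COL11A1, SPRY2 and KLRC1 were picked for the smallest p of this interaction, so these counts are not separate support for it. The days between draws differed as well, with a median of 10.5 in the unscheduled and 20 in the scheduled animals. So did the last day, with medians of 114.5 and 60, and the dose, with 9.8 Gy given to 4 of 8 and 3 of 14. None of these can be told apart from the kind of draw.

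A second fit set the last draw of the 22 animals against all 280 irradiated samples, with the animal as a block and a smooth curve of day shared by all 28 animals. Here 951 genes were called (6.92%), 499 that rose (3.63%) and 452 that fell (3.29%); with TMM scaling 780 of 1013 rose. The reference in this fit is an animal's whole course and not the preceding draw, and repeated draws of an animal are taken as independent once its mean is removed. All last draws except that of B2007 have the library number 0, whereas many earlier draws have other numbers. A shared 0 does not show a common batch. The fit has no term for the library number, and its part in these calls was not tested.

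Relative to the day curve, MMP8 rose most (2.83 ± 0.38, edgeR adjusted p = 1.72e-08), followed by IL1R2 (1.98 ± 0.33) and IL1RL1 (1.91 ± 0.38). CPA3 (-1.63 ± 0.30), the IgE receptor chain FCER1A (-1.25 ± 0.28) and the lymphoid DNA polymerase DNTT (-1.12 ± 0.26) fell most. Symbols starting with LOC were left out of this ranking. FKBP5 rose by 0.98 ± 0.22, ZBTB16 by 1.58 ± 0.31, PER1 by 1.06 ± 0.23 and CD163 by 1.00 ± 0.18. Of 25 glucocorticoid-induced genes 13 rose and 1, IL7R, fell (median 0.67, against -0.08 over all genes). Of 19 granule genes 14 rose (median 0.85), of 19 mature neutrophil genes 11 (median 0.65), of 20 C-type lectin and Fc receptor genes 10 (median 0.60) and of 29 cytokine genes 11 (median 0.33), and 0 of these 4 lists' members fell.

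Of 23 B cell genes 15 fell (median -0.64), with MS4A1 at -0.99 ± 0.17 (adjusted p = 2.91e-06). Of 20 T cell receptor genes 2 fell (median -0.39) and CD3E, at -0.45 ± 0.10, did not reach the fold change. Of 22 platelet genes 4 rose and of 31 erythroid genes 3, of 33 interferon genes 1, and of the p53, replication, ribosomal and oxidative phosphorylation lists 0 in either direction. Of the Toll-like receptor and the complement list 5 rose and 1 fell each, of hypoxia genes 4 rose, of monocyte genes 3 rose and 1 fell, of basophil genes 2 rose and 4 fell, of eosinophil genes 2 rose and of immediate early genes 1 rose. Of the naive lymphocyte and the heat shock list 3 fell each, and of the plasma cell and the cytotoxic list 1 each. Without the last draw of B2007, HBB was called at -1.28 against -0.54 with it. Interferon genes had a median of 0.31 in this fit and -0.14 against the preceding draw.

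**Figure D5:**
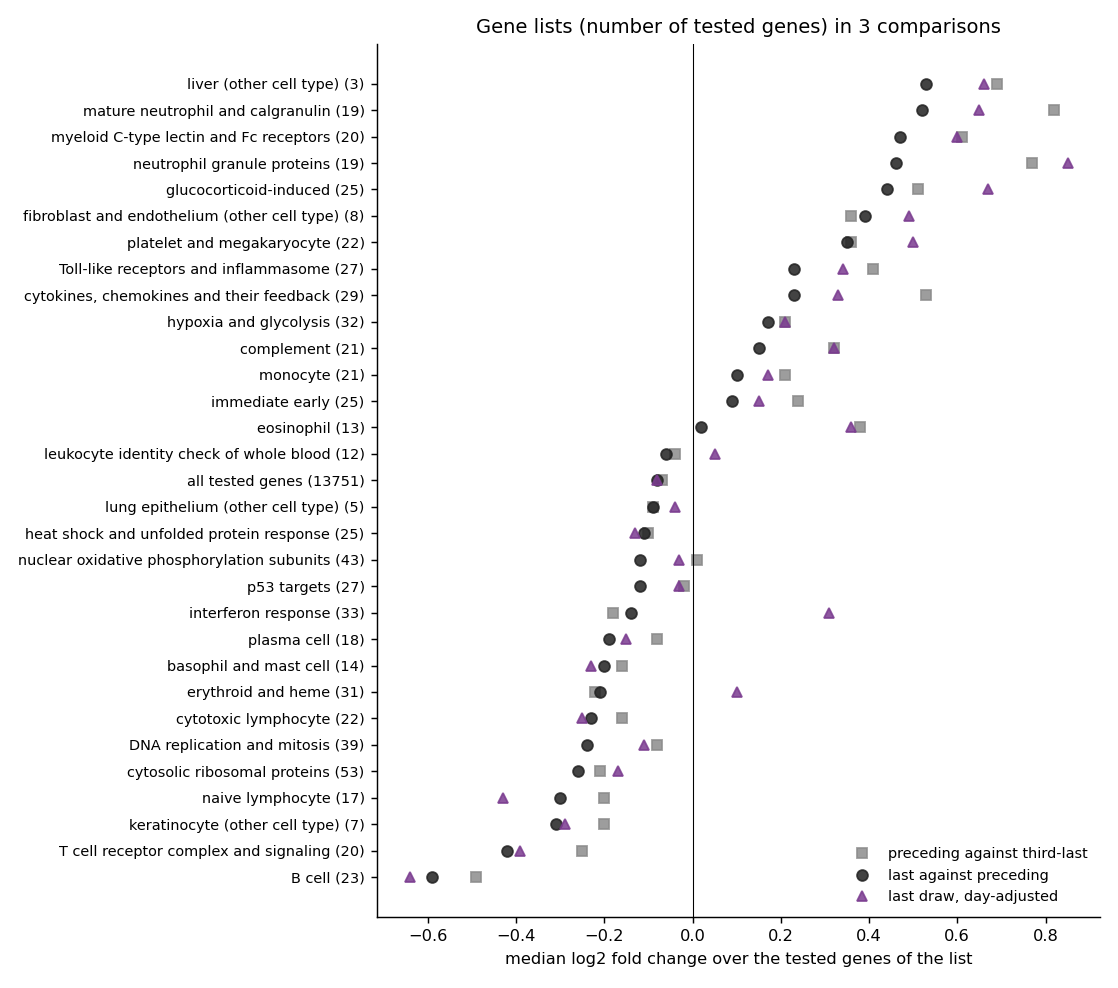
Median log2 fold change of each gene list (number of tested genes in brackets) from the third-last to the preceding draw (squares), from the preceding to the last draw (circles) and at the last draw after adjustment for day (triangles). Neutrophil and glucocorticoid-induced lists lie to the right in all 3 comparisons and B cell genes to the left (-0.59 for the circles).

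The 6 animals followed to Day 270 give a background for a final pair of draws. From Day 240 to Day 270 edgeR called 0 genes (0%), with 1187 (8.63%) at an unadjusted p of 0.05; DESeq2 called 35 and limma 0. FKBP5 was at 0.25 ± 0.18, IL1R2 at 0.56 ± 0.29 and MS4A1 at 0.19 ± 0.32 (n = 6). Several lists had values here close to or beyond those in the animals that ended early, at an unadjusted p of 0.05 that 3.28% of all genes passed higher and 5.35% lower. Platelet genes had a median of 0.95 with 17 of 22 higher, T cell receptor genes -0.38 with 10 of 20 lower, cytotoxic genes -0.47 with 12 of 22 lower and ribosomal protein genes -0.54 with 36 of 53 lower. HSPH1 was at -0.88 ± 0.23, MS4A7 at -0.99 ± 0.32 and CPA3 at -2.49 ± 0.59. B cell genes had a median of 0.37 and granule genes of 0.26. Mature neutrophil genes had a median of 0.30, with 17 of 19 positive. C-type lectin and Fc receptor genes had a median of 0.16, with 13 of 20 positive. Over these 6 animals the log2 change of CLEC4D ran from 0.42 to 3.35 and that of MMP8 from -1.70 to 3.49. The difference between the 2 sets of animals was not tested. High FKBP5 was also seen here: 7 of the 90 irradiated draws of these 6 animals, from 4 of them, exceeded the highest control. They included B1003 on Day 120 (2075 CPM), B1503 on Day 270 (1573 CPM) and B2502 on Day 270 (1800 CPM).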

How the data were processed

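Whole-blood RNA-seq of 280 irradiated and 24 control samples was used. Per the labels and the study's methods, the authors trimmed reads with cutadapt 2.10 and aligned them to Mmul_10 with STAR 2.7.6a. They deposited gene counts made with Subread 2.0.1 (strand setting not given in the sources used here), and log2 values after upper-quartile scaling. The methods also describe conditional quantile normalization, which corrects for GC content, before the log2 step. From the deposited counts, genes with at least 3 counts in 80% of the samples were kept (13751 of 21070). Last and preceding draws were compared with edgeR 4.0.16's quasi-likelihood test (upper-quartile scaling, a block for each animal); a gene was called at a Benjamini-Hochberg adjusted p of 0.05 with a 1.5-fold change. Printed levels are scaled CPM, and per-animal changes add a prior count of 2. The alternatives used TMM, DESeq2 1.42.0, limma 3.58.1 on the deposited log2 values, other filters, no block, each animal left out, pairs of the same library-number range and the library of B2007 left out, the last added after seeing the data. The day curve was a natural spline of log2 day with 4 degrees of freedom.

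Draws were paired because they come from the same animal; deviations from the group means correlated with a median of 0.25 within and -0.03 between animals. The members and gene lists were chosen with earlier results of these data known. Named genes come from a set of 28 and from up to 3 called or the 2 smallest-p members of each list. They also come from the 3 smallest p of each interaction and the 3 highest and lowest called at the day-adjusted draw (no LOC symbols). Some genes picked this way, such as SAMD9L, BASP1, TREM1 and EOMES, are not named above. Fits were tested on simulated data, with 200 genes of 13751 changed by a fold of 3. Of these, 199 were recovered for the 22 animals, 195 for the 15 at 10.7 Gy and 135 for the 7 at 9.8 Gy. The dose interaction gave 127 and the unscheduled interaction 145. False calls numbered 5, 6, 9, 6 and 8 in the same order. Recovery of genes whose direction differs between animals was not tested. In the measured data MMP8, at 1.73 ± 0.54 over the 22 animals, was not called (edgeR adjusted p = 0.191). Replicates are separate animals, and 1 library was made per draw.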

Additional observations from a re-analysis of the deposited data

Results flagged for a closer look

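The change of ALAS2 from the preceding to the last draw was 1.98 (log2) in B1001, against -0.44 to 0.39 in the other 6 animals at 9.8 Gy. It stood far enough from its nearest neighbour to pass Dixon's 95% limit. In all, 84 such groups of 6 to 8 animals were examined, and chance alone flags about 1 in 20.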

How the results depend on the processing

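The count of called genes for the last against the preceding draw was 0 with edgeR and 209 with DESeq2, 4 with no filter on low counts and 3 with at least 10 counts in every sample; leaving out an animal gave 0 to 5 (4 without B1506, 5 without B2001). At 9.8 Gy DESeq2 gave 5 and leaving out an animal 0 to 0. At 10.7 Gy the count was 1 with TMM, 79 with DESeq2, 1 with limma, 3 with no filter, 0 to 12 with an animal left out (12 without B2001) and 1 without B2007. DESeq2 gave 4 for the unscheduled interaction, 771 for scheduled last draws and 35 for Day 240 to Day 270, where no filter gave 41. For the third-last to the preceding draw the count of 533 was 293 with at least 10 counts in every sample. The cause of these differences was not tested. The day-adjusted count of 951 ranged from 663 (from Day 21 on) to 1013 (TMM). Without the replicate block, which pairs the draws of an animal, the third-last to preceding count went from 533 to 0, and the other comparisons between draws had 0 calls with and without it. Without the block the log2 change turned to 0.77 for HBB, 0.69 for IFIT5, 0.41 for DSP, 1.22 for ALAS2, 0.73 for EPX, 0.18 for IFIT1, 0.06 for ADM and -0.06 for NSG2. With an animal left out ARG1 ranged from -0.01 to 0.11 and LYZL6 from -0.02 to 0.24. In the day-adjusted fit TMM turned ARG1 to 0.05 and HBA to 0.09, and ALAS2 turned to -0.21 from Day 21 on and to -0.48 without B2007. Across the alternatives for named genes between draws, 488 values kept direction and side of the threshold, 24 passed it and 10 reversed. In the day-adjusted fit 5 passed it, 4 reversed and OLFM4 lost its call (0.71 from Day 21 on). The 9.8 Gy comparison rests on 7 animals.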
